A study of Mus musculus with 6 samples.

Results

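Long intergenic noncoding RNAs (lincRNAs) are long transcripts with no known protein that lie apart from protein-coding genes, and 154 of them were expressed in these mouse CD8+ T cells. They were selected on their own measured level: rows of the deposited table with the biotype lincRNA and a mean of at least 1 FPKM over 6 libraries, where FPKM is the reads of a gene divided by its length in kilobases and scaled to the library total. The table holds 41095 rows with values, of which 2841 are lincRNA rows of any level. Of these, 1667 were at 0 in all 6 libraries and 1020 were above 0 but under the threshold. Among the 154, 136 carry a gene symbol and 18 carry a strain gene identifier alone, for which no role is given here.

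The 6 libraries are RNA sequencing of wild-type (WT) splenic CD8+ T cells, the killer lymphocytes, 3 of untreated control cells and 3 of cells treated with the short-chain fatty acid acetate. Both groups were purified by positive selection and kept for 72 h with IL-2 (30 U/mL) on wells precoated (24 h) with antibodies to CD3 (5 µg/mL) and CD28 (2 µg/mL), which together activate T cells. The treatment is labelled as 48 h of acetate, in an unusually written unit taken as 5 mmol/L, while the design text compares cells before and after treatment, so that acetate and time in culture cannot be told apart. Mouse age and strain are not stated in the labels, nor whether libraries of a group stem from different mice, and the p-values therefore measure the spread between samples that may be technical replicates.

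LincRNAs are mostly transcribed by RNA polymerase II, capped, spliced and often kept in the nucleus, and their levels tend to be far below those of messenger RNAs. Some act as RNA scaffolds, such as Neat1, which builds the nuclear bodies called paraspeckles. Others are hosts, whose introns or exons are cut to release small nucleolar RNAs (snoRNAs), which guide the modification of ribosomal RNA, or microRNAs (miRNAs), which silence messenger RNAs that pair with their seed. In T cells the best known hosts are Mir155hg, which T cell receptor signals induce, Mir17hg, whose miRNA cluster favours proliferation, and Mir142hg, which is active throughout the blood lineages.

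With acetate, 38 of the 154 lincRNAs fell and 11 rose. These counts include 5 falls and 1 rise of lincRNAs that passed the 1 FPKM threshold through 1 group alone. Mirt1 and 4833407H14Rik, which overlap on opposite strands of chromosome 19, fell together, as did the snoRNA host Snhg12, the miR-155 host Mir155hg and Neat1. The most abundant of the 154, known only as MGP_C57BL6NJ_G0005943, rose from a mean of 185 to 242 FPKM. Malat1, Mir142hg, Mir17hg, Snhg6 and Snhg20 did not pass the test.

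Of the 15 miRNA arms that RefSeq lists for Mir155hg, Mir142hg and Mir17hg, 10 are shown because they are the products by which these hosts are known, with both arms of miR-155 and miR-142a and 1 arm of each Mir17hg miRNA; Ftx, the fourth miRNA host among the 154, is given by its values alone. Here the sequences are RefSeq's (GRCm38.p6), written 5′ to 3′ with the seed, bases 2 to 8, in capitals. The mature miRNAs themselves were not measured. No seed printed here is shared between hosts, while within Mir17hg miR-17-5p and miR-20a-5p share one seed and miR-19a-3p and miR-19b-3p another.
mmu-miR-155-5p: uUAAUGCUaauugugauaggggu
mmu-miR-155-3p: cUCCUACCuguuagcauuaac
mmu-miR-142a-5p: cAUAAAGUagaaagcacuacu
mmu-miR-142a-3p: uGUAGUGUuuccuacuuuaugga
mmu-miR-17-5p: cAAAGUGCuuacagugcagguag
mmu-miR-20a-5p: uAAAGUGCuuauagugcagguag
mmu-miR-18a-5p: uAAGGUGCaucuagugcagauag
mmu-miR-19a-3p: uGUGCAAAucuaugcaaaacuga
mmu-miR-19b-3p: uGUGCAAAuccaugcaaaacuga
mmu-miR-92a-3p: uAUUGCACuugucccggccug

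Promoter windows of 300 bases, 250 before and 50 after the annotated start, are shown for the overlapping pair that fell together, Mirt1 (GRCm38.p6 chr19:53464747-53465046, minus strand) and 4833407H14Rik (chr19:53460372-53460671, plus strand), again from RefSeq. Capitals in the Mirt1 window mark its match to TGAGTCA, the site known for AP-1 factors, read on the other strand, and capitals in the 4833407H14Rik window mark the 50 bases from the start on.
Mirt1: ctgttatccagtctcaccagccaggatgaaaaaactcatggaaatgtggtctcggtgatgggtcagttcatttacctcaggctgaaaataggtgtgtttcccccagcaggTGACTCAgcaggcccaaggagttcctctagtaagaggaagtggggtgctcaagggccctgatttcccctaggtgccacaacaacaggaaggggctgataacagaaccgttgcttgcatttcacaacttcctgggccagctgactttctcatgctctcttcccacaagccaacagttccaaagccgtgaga
4833407H14Rik: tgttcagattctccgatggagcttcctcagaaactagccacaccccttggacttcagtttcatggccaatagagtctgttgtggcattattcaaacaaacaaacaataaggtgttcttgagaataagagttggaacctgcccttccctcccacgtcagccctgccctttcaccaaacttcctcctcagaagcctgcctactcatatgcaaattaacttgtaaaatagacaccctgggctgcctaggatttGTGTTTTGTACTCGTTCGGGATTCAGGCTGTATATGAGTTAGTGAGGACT

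Such a window was given for 71 of the 154, of which 18 fell and 6 rose, and 4 motifs were searched on both strands. TGAGTCA stood in 5.2% of the 32851 mouse windows and in 5 of the 71, those of Mirt1 and C130083M11Rik, which fell, 1810058I24Rik, which rose, and 2 that did not pass the test. CACGTG, the E-box of basic helix-loop-helix factors, stood in 7.15% of windows and in 6 of the 71, of which 2 fell, 2310010J17Rik and 9330175E14Rik. TGACGTCA, the cAMP response element, stood in 1.79% of windows and in 6 of the 71, of which Gm14321 fell. TGATGNAA, a form known for ATF4 and C/EBP factors, stood in 3.97% of windows and in 1 of the 71, Gm16157, which did not pass the test. TGATGNAA and the other letters can overlap in a window, these genes were chosen after their values were seen, and a match describes letters and no binding.

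Levels of the lincRNAs were low and uneven. Mean FPKM over the 6 libraries ran from 1.01 to 213.6 with a median of 2.42, and the 5 most abundant held 41.1% of the summed FPKM of the 154. The reads behind these means, recovered from the FPKM steps, ran from 9.33 to 15597 per library with a median of 144.3, and 28 lincRNAs had under 50. The recovered reads of a library summed to between 31098394 and 39140711. Gene lengths ran from 137 to 20751 bases with a median of 1440, against a median of 3848 for the 9579 protein-coding rows with a mean of at least 1 FPKM.

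Of the 4 lincRNAs above 100 FPKM, MGP_C57BL6NJ_G0005943 led with 183, 193 and 180.3 FPKM in control and 232, 259 and 235 FPKM in acetate cells. Gm19585 followed with 135, 149 and 139 FPKM in control and 134, 142 and 135 in acetate. MGP_C57BL6NJ_G0005386 had 113, 116 and 123 FPKM in control and 125, 129 and 128 in acetate. The groups were apart for the first and the third, and they overlapped for Gm19585. Epb41l4aos, named for its place beside the cytoskeletal gene Epb41l4a on chromosome 18, had 114, 112 and 103 FPKM in control and 120.3, 132 and 150 in acetate, without overlap.

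The other 6 of the 10 most abundant lincRNAs lay between 42.2 and 63.7 FPKM. They were Mir155hg, Malat1, MGP_C57BL6NJ_G0007363, Snhg6, Gm44174 and Gm26623. In this order Mir155hg and Malat1 had nearly the same mean, 63.7 FPKM each, with overlapping libraries. At the lower end the lincRNAs just inside the threshold were Gm13073 at 1.05, Gm43635 at 1.04 and Gm44053 at 1.01 FPKM. Those just outside were 4933417D19Rik at 0.999, Gm26737 at 0.996 and Gm15340 at 0.988 FPKM. Because the threshold is set on the mean of both groups, 8 lincRNAs had an acetate mean under 1 FPKM, of which 5 fell. Another 5 had a control mean under 1 FPKM, of which 1 rose. For all of these the choice fixed a part of the difference, and their calls are no support for a change.

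The test was limma on log2(FPKM + 1) over all 10867 rows with a mean of at least 1 FPKM, and p-values were two-sided, adjusted by Benjamini and Hochberg's method and held to 0.05. It called 31.8% of the 154 lincRNAs, 7.14% higher and 24.7% lower. The background was 38.9% of all rows tested, 22% higher and 16.9% lower, and 41.4% of protein-coding rows, 23.8% higher and 17.6% lower. An unadjusted p under 0.05 was reached by 65 lincRNAs. On the TPM scale, which divides each library by its own FPKM sum, 6 rose and 44 fell, so that the share of higher calls was 12% in place of 22.4%. That scale also moved the median log2 change of all rows tested from 0.02 to -0.05. The shares of all rows called on it are not given here, so these counts do not single out lincRNAs.

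The median log2 change was -0.11 over the 154 lincRNAs and 0.02 over both all rows tested and the protein-coding rows. Of the lincRNAs, 103 had a negative change and 51 a positive one. The fallen ones had a median change of -0.43 and the risen ones of 0.28. Among the called lincRNAs, 12 had a log2 change of FPKM + 1 of -0.5 or lower and 0 had one of 0.5 or higher. This scale understates changes of low rows: with a pseudocount of 0.1 the counts were 22 and 2, and with voom 28 and 2, where the 2 rises were MGP_C57BL6NJ_G0005829 and 4930519D14Rik. Control and acetate values did not overlap for 48 of the 49 called lincRNAs, the exception being 2310010J17Rik. The calls rest on the same values, so this count is largely set by the call and adds little to it. Neither this count nor those by size of change are set beside the called rows of other biotypes, so they do not single out lincRNAs. Over all 154, the acetate values lay all below the control values for 46 and all above for 19, against 23.1% and 28.8% of all rows tested.

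**Figure D1:**
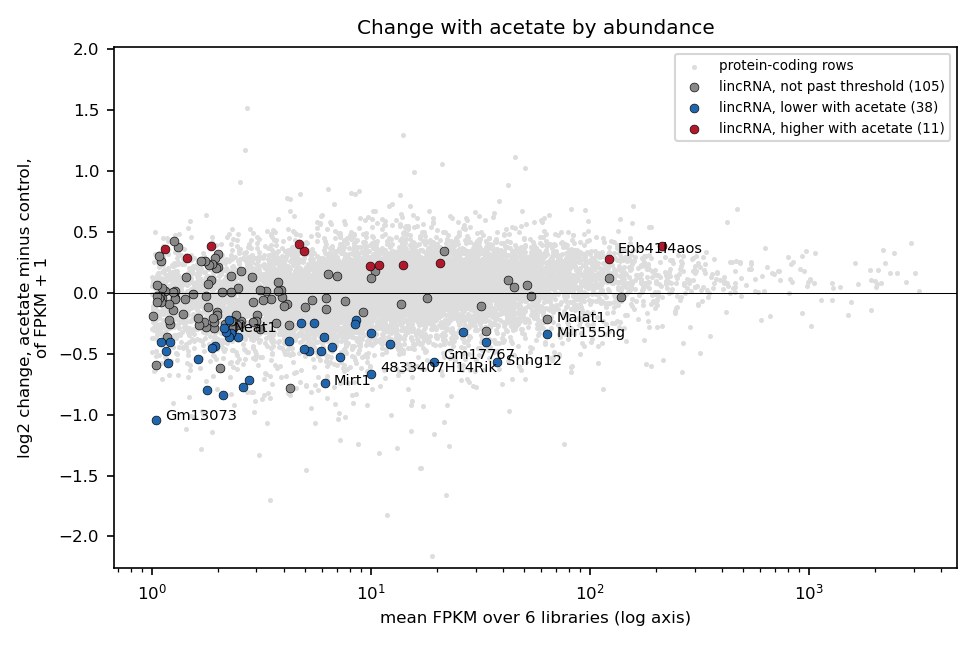
Log2 change of FPKM + 1 (acetate minus control, vertical axis) against mean FPKM over 6 libraries (horizontal log axis) for protein-coding rows (light grey) and the 154 lincRNAs (blue lower, red higher, dark grey not past the threshold). Blue points, 38 in number, reach down to Gm13073 at -1.05, which passed the 1 FPKM threshold through control alone and is no support for a fall. The 11 red points stay at or under 0.40.

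Rows of low abundance are called less often, so the lincRNAs were set beside protein-coding rows of like mean FPKM. From 1 to 2 FPKM the shares were close, with 15% of 60 lincRNAs and 15.2% of 752 protein-coding rows lower, and 5% and 3.99% higher. From 2 to 5 FPKM 24% of 50 lincRNAs were lower and 4% higher, against 19.1% and 11% of 1648 protein-coding rows. For lower calls the gap was widest from 5 to 20 FPKM, where 13 of 27 lincRNAs (48.1%) were lower and 3 (11.1%) higher, against 19.6% and 21.9% of 3985 protein-coding rows. At 20 FPKM or more 4 of 17 lincRNAs were lower and 3 higher, against 14.7% and 37.5% of 3194 protein-coding rows, the widest gap in higher calls.

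The 13 that fell between 5 and 20 FPKM include Gm17767, 4833407H14Rik, Gm16712 and Mirt1, described next, with 118 to 2700 reads per library behind them. That bin was picked out as the widest after the counts were seen. Reads shared by Mirt1 and 4833407H14Rik cannot be told apart, nor those of Gm16712 or MGP_C57BL6NJ_G0005945 with the protein-coding genes they overlap. Gm28100, 2310010J17Rik, Gm43634, MGP_C57BL6NJ_G0006880 and Gm16001 lost the call without some single library. Since lincRNA genes are shorter, equal FPKM means fewer reads, and the shares were also counted by reads. With 500 reads or more, 34.4% of 32 lincRNAs were lower and 15.6% higher, against 17.7% and 27% of 7838 protein-coding rows. From 100 to 500 reads 25.8% of 62 lincRNAs were lower and 4.84% higher, against 17.5% and 9.99% of 1552 protein-coding rows. Under 100 reads 18.3% of 60 lincRNAs were lower and 5% higher, against 11.1% and 5.82% of 189 protein-coding rows. These shares are descriptions, and no test of the lincRNAs as a set was run.

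**Figure D2:**
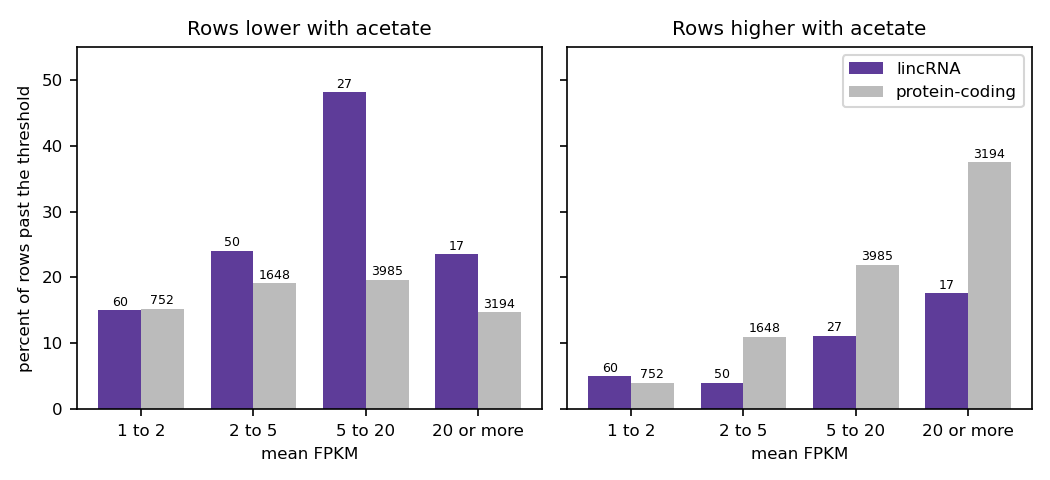
Percent of rows past the threshold (vertical axis, from 0) that were lower (left) or higher (right) with acetate, by mean FPKM, for lincRNAs (purple) and protein-coding rows (grey), with the number of rows above each bar. Among rows of 5 to 20 FPKM 48.1% of lincRNAs and 19.6% of protein-coding rows were lower. This bin was picked out after the counts were seen. Its lower lincRNAs include Mirt1 and 4833407H14Rik, whose reads cannot be told apart.

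Taken as one pool, the 154 lincRNAs held 0.302%, 0.301% and 0.324% of the recovered reads in the control libraries and 0.286%, 0.268% and 0.263% in the acetate libraries. The groups did not overlap, with means of 0.309% ± 0.013 and 0.272% ± 0.0122 (SD, n = 3 each). Without Malat1, which alone gave 11848 to 19624 reads per library, the means were 0.260% ± 0.00733 and 0.231% ± 0.00723. The summed FPKM was closer, at 1623 ± 30.9 in control and 1594 ± 17.4 in acetate (SD, n = 3 each), with the rise of the 213.6 FPKM leader inside that sum.

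The nuclear RNAs Malat1 and Neat1 lie 23316 bases apart on the same strand of chromosome 19. Neat1, the paraspeckle scaffold (MGP_C57BL6NJ_G0005938, 2890604 to 2911354), had 2.38, 2.27 and 2.72 FPKM in control and 1.85, 1.75 and 1.87 in acetate cells. Every acetate library lay below every control library, and the fall was 0.29 on the log2 scale (SE 0.08, limma adjusted p = 0.0228). Its call was lost without control 1 (adjusted p = 0.0523), control 3 (0.0804) or acetate 2 (0.0691), within a range over all alternatives of 4.26e-05 to 0.0804.

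Malat1, which concentrates in nuclear speckles (MGP_C57BL6NJ_G0005937), had 67.5, 60.1 and 77.9 FPKM in control and 67.1, 54.1 and 55.4 in acetate. The groups overlapped through acetate 1, and the log2 change of -0.21 (SE 0.11) had an adjusted p of 0.163. Counted as recovered reads with limma's voom weights, Malat1 passed the threshold (adjusted p = 0.0169, range over alternatives 0.0169 to 0.42).

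Of 15 paraspeckle proteins tested, 7 rose and 4 fell (median log2 change 0.10), where 23.8% of all protein-coding rows rose and 17.6% fell (median 0.02). Calls depend on abundance, and none of the gene lists was matched for it. From 5 to 20 FPKM 21.9% of protein-coding rows rose and 19.6% fell, and at 20 FPKM or more 37.5% and 14.7%. Pspc1, a core paraspeckle protein, rose from 17.9 ± 0.290 to 28.2 ± 1.01 FPKM (SD, n = 3, log2 change 0.63, adjusted p = 0.000118). Sfpq, its partner in the core, rose from 80.5 ± 1.59 to 114.9 ± 1.39 FPKM (log2 change 0.51, adjusted p = 0.00012). Hnrnph3, an RNA-binding protein also found in paraspeckles, fell from 13.8 ± 0.673 to 9.59 ± 0.186 FPKM (log2 change -0.49, adjusted p = 0.000409).

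RNase P trims the end of Malat1, and 4 of its 10 listed genes tested rose and 0 fell in limma (0 fell at an unadjusted p under 0.05 and 0 with voom), with 6 not past the threshold, beside 23.8% higher and 17.6% lower of protein-coding rows. Pop1, its largest protein subunit, rose from 15.0 ± 0.551 to 20.2 ± 0.688 FPKM (log2 change 0.40, adjusted p = 0.000646). The list includes Elac2, the nuclease that cuts transfer RNA at the other end, which rose from 38.6 to 49.1 FPKM (adjusted p = 0.00216). Rpp25l, a paralogue of an RNase P subunit, rose from 13.0 to 19.5 FPKM (adjusted p = 0.00489).

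Snhg12 (MGP_C57BL6NJ_G0006662, chromosome 4, 139303544 to 139305890) carries snoRNAs in its introns. It had 44.8, 44.5 and 45.8 FPKM in control and 27.9, 32.6 and 29.5 FPKM in acetate cells. The groups lay far apart, and the fall from 45.0 ± 0.660 to 30.0 ± 2.40 FPKM (SD, n = 3) was 0.57 on the log2 scale (SE 0.06, adjusted p = 0.000447). Its convergent neighbour Trnau1ap, 731 bases away, had 23.4 ± 2.00 and 26.3 ± 1.77 FPKM (adjusted p = 0.114).

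Both other listed snoRNA hosts among the 154 were not past the threshold, and the list may not hold every host. Snhg6 had 48.9, 51.0 and 50.7 FPKM in control and 51.0, 54.9 and 51.3 in acetate (log2 change 0.06, SE 0.04, adjusted p = 0.291). Snhg20 had 6.81, 7.03 and 5.85 FPKM in control and 5.59, 5.70 and 6.41 in acetate (log2 change -0.13, SE 0.08, adjusted p = 0.218). For each of them the groups overlapped.

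Other listed snoRNA hosts that were tested carry the biotype processed transcript and are outside the 154. Over the 9 listed hosts tested in all, 0 rose and 3 fell in limma (median log2 change -0.12). None of the listed hosts rose at an unadjusted p under 0.05 or with voom, which called 5 lower. Of all rows tested 22% rose and 16.9% fell. Gas5, a host known for its growth-arrest link, fell from 116.2 ± 5.495 to 96.8 ± 2.54 FPKM (log2 change -0.26, adjusted p = 0.00385). Snhg15 fell from 77.1 ± 2.54 to 64.4 ± 4.48 FPKM (log2 change -0.26, adjusted p = 0.00901).

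Genes listed for proteins that bind snoRNAs or help assemble their particles rose where they were called. Of the 12 listed genes tested 7 rose and 0 fell in limma (median log2 change 0.22). The other 5 were not past the threshold, and 0 fell at an unadjusted p under 0.05 or with voom. Those that rose include the assembly factors Naf1, Shq1 and Nufip1. Not past the threshold were Fbl, Gar1, Nop10, Ruvbl1 and Ruvbl2. The shares over protein-coding rows were 23.8% higher and 17.6% lower, and 37.5% and 14.7% over those of 20 FPKM or more. Nop56, which binds box C/D snoRNAs, rose from 98.9 ± 1.14 to 132 ± 1.78 FPKM (log2 change 0.41, adjusted p = 0.000201). Dkc1, the pseudouridine synthase of box H/ACA snoRNAs, rose from 70.3 ± 1.37 to 85.7 ± 3.09 FPKM (log2 change 0.28, adjusted p = 0.00159). Nop58, the partner of Nop56, rose from 36.6 ± 1.39 to 43.8 ± 1.13 FPKM (log2 change 0.25, adjusted p = 0.00298).

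Nonsense-mediated decay (NMD) removes the spliced exons of many snoRNA hosts. Of its 22 listed genes tested, 8 rose and 4 fell (median log2 change 0.13), the falls at about the share over protein-coding rows (23.8% higher, 17.6% lower). Among protein-coding rows of 20 FPKM or more 37.5% were higher and 14.7% lower. Ncbp2, a cap-binding subunit, rose from 25.2 ± 1.59 to 35.8 ± 0.565 FPKM (adjusted p = 0.000458), and its partner Ncbp1 rose from 54.6 to 67.6 FPKM (adjusted p = 0.000582). Casc3, a peripheral exon junction protein, fell from 29.5 ± 0.953 to 24.0 ± 0.358 FPKM (adjusted p = 0.00133).

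Mir155hg (MGP_C57BL6NJ_G0005800, chromosome 16, 88044237 to 88056311), whose miRNA arms are printed above, had 66.7, 71.8 and 74.8 FPKM in control and 61.9, 57.1 and 49.9 in acetate cells. All acetate values lay below all control values, and the fall was 0.34 on the log2 scale (SE 0.08, adjusted p = 0.0137). Its adjusted p was 0.0549 when rows of any level were tested, within a range of 0.000212 to 0.0549. Mrpl39, a mitochondrial ribosomal protein gene 2361 bases away in convergent orientation, rose from 29.3 ± 0.816 to 35.0 ± 0.941 FPKM (log2 change 0.24, adjusted p = 0.0027).

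The other miRNA hosts among the 154 were not past the threshold. Mir142hg had 31.4, 33.5 and 34.5 FPKM in control and 27.8, 33.9 and 30.5 in acetate (log2 change -0.11, SE 0.07, adjusted p = 0.268). Mir17hg had 5.36, 5.98 and 6.66 FPKM in control and 6.94, 6.44 and 6.94 in acetate (log2 change 0.15, SE 0.07, adjusted p = 0.137). Ftx, a host that lies in the X inactivation centre, had 1.04, 1.12 and 1.14 FPKM in control and 1.083, 1.045 and 0.997 in acetate (adjusted p = 0.736). Xist, the RNA that coats the inactive X chromosome, was under the threshold at a mean of 0.00618 FPKM, and with these 4 hosts and Mir22hg, of another biotype, 0 miRNA hosts of 5 tested rose and 1 fell in limma, with 0 risen at an unadjusted p under 0.05 or with voom (22% of all rows rose and 16.9% fell).

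Of 9 genes listed for miRNA processing and action 3 rose and 0 fell in limma, with 6 not past the threshold; 1 was lower at an unadjusted p under 0.05, and voom called 3 higher and 3 lower. Protein-coding rows as a whole were 23.8% higher and 17.6% lower, and those of 20 FPKM or more 37.5% and 14.7%. Dgcr8, the RNA-binding partner of Drosha in the nuclear microprocessor, rose from 6.86 ± 0.195 to 11.03 ± 0.0876 FPKM (log2 change 0.61, adjusted p = 0.00012). Drosha, the nuclease, rose from 14.7 ± 0.996 to 17.6 ± 0.265 FPKM (log2 change 0.25, adjusted p = 0.00843). Dicer1, the cytoplasmic nuclease, rose from 21.8 to 24.8 FPKM (adjusted p = 0.0134), with the call gone without acetate 2 (adjusted p = 0.0549, range over alternatives 0.0134 to 0.148).

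Trp53cor1, the p53-induced RNA also called lincRNA-p21 (MGP_C57BL6NJ_G0005840, chromosome 17, 29693618 to 29717427), had 2.84, 2.47 and 2.67 FPKM in control and 2.12, 1.59 and 1.84 in acetate cells. The groups did not overlap, and the fall was 0.36 on the log2 scale (SE 0.09, adjusted p = 0.0167). The call was lost without control 1 (adjusted p = 0.0588), control 3 (0.0503) or acetate 2 (0.0507), within a range of 0.00368 to 0.0642. Its divergent neighbour at 15668 bases, the cell cycle inhibitor Cdkn1a, had 263, 261 and 266 FPKM in control and 249, 251 and 260.1 in acetate, lower in each acetate library but with a log2 change of -0.06 (adjusted p = 0.24).

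Mirt1 (MGP_C57BL6NJ_G0005974, chromosome 19, 54881718 to 54908059), named after a transcript associated with myocardial infarction, had 8.07, 7.65 and 8.06 FPKM in control and 4.72, 3.94 and 4.41 in acetate cells. The fall of 1.82-fold in mean FPKM was 0.74 on the log2 scale (SE 0.06, adjusted p = 0.000287), from about 2404 to 1317 reads per library. 4833407H14Rik, which lies within it on the opposite strand, had 13.1, 10.3 and 14.3 FPKM in control and 7.88, 8.28 and 6.36 in acetate, a fall of 0.67 (SE 0.13, adjusted p = 0.00559). The groups were apart for both. The strand setting of the counting is not given, so reads of the pair cannot be told apart. The nearest protein-coding genes, Smndc1 at 58793 bases from Mirt1 and the phosphatase gene Dusp5 at 66490 bases from 4833407H14Rik, were not past the threshold (adjusted p = 0.436 and 0.45).

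Gm17767 (MGP_C57BL6NJ_G0004942, chromosome 1, 53169642 to 53273258) had 22.9, 23.0 and 24.2 FPKM in control and 15.2, 15.8 and 15.3 in acetate. The libraries of each group lay close together and the groups far apart, and the fall was 0.57 (SE 0.04, adjusted p = 0.000122). Nabp1, a single-stranded DNA binding protein gene 29697 bases away, was not past the threshold (adjusted p = 0.115).

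The largest falls were among lincRNAs of few reads. Gm13073 had 2.32, 1.31 and 1.65 FPKM in control and 0.105, 0.356 and 0.538 in acetate, a log2 change of -1.05 (SE 0.18) from 29.7 to 5.33 reads per library. It passed the 1 FPKM threshold through its control libraries alone, so that its choice fixed a part of this difference, and its call is no support for a fall. 4930535E02Rik had 2.74, 3.37 and 2.79 FPKM in control and 1.599, 1.146 and 0.947 in acetate, a fall of 0.84 (SE 0.12, adjusted p = 0.00205). Gm8817, on the X chromosome, had 2.66, 4.40 and 3.68 FPKM in control and 1.59, 1.49 and 1.88 in acetate, a fall of 0.77 (SE 0.14, adjusted p = 0.00492). In each of these the acetate libraries all lay below the control libraries.

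Gm26664, 2264 bases from the immediate early gene Ier2, had 3.28, 4.07 and 3.62 FPKM in control and 2.57, 2.01 and 1.11 in acetate. Its fall was 0.71 (SE 0.18, adjusted p = 0.0181), and the call was lost without control 2 (adjusted p = 0.0579, range over alternatives 0.0062 to 0.0769). Gm15326 had 1.70, 1.46 and 1.65 FPKM in control and 0.988, 0.446 and 0.855 in acetate, without overlap (log2 change -0.57, SE 0.13), and it too passed the threshold through control alone. The 23 fallen lincRNAs not named by rule had log2 changes from -0.48 to -0.22. Of all 38, 14 lost the call without some single library and the other 24 did not.

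**Figure D3:**
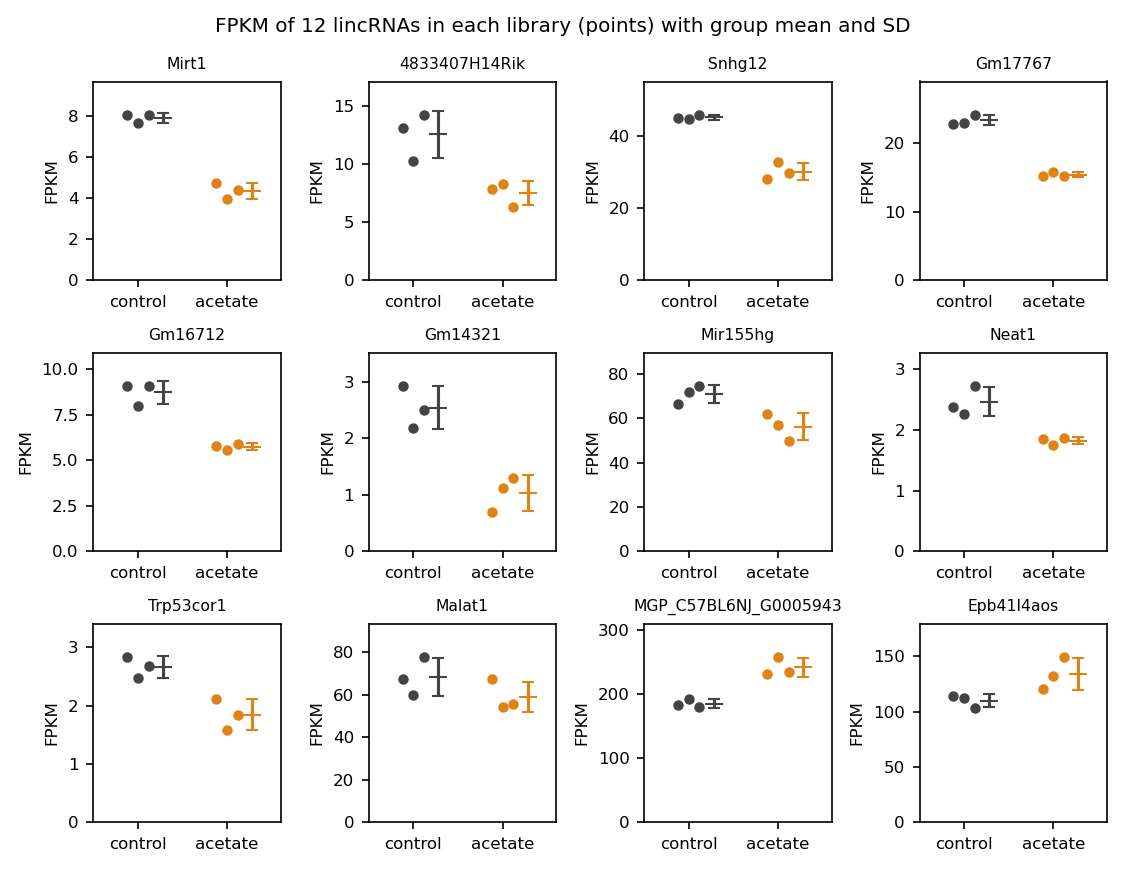
FPKM (vertical axes, from 0) of 12 lincRNAs in the 3 control (dark grey) and 3 acetate (orange) libraries as points, with the group mean and SD beside them. Acetate points lie below all control points in Mirt1, 4833407H14Rik, Snhg12, Gm17767, Gm16712, Gm14321, Mir155hg, Neat1 and Trp53cor1, overlap them in Malat1, and lie above them in MGP_C57BL6NJ_G0005943 and Epb41l4aos.

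Among the 11 that rose, MGP_C57BL6NJ_G0005943 (chromosome 19, 8804787 to 8809446), whose values stand above, had a log2 change of 0.38 (SE 0.05, adjusted p = 0.00159), with about 5004 and 6481 reads per library in control and acetate. 2700038G22Rik had 3.69, 3.51 and 4.59 FPKM in control and 5.64, 5.72 and 5.08 in acetate (log2 change 0.40, SE 0.09, adjusted p = 0.0117). 4930519D14Rik had 1.55, 1.46 and 1.41 FPKM in control and 2.11, 2.26 and 2.33 in acetate (log2 change 0.39, SE 0.07, adjusted p = 0.00601). Gm14133 had 19.7, 18.9 and 17.99 FPKM in control and 22.2, 23.6 and 21.9 in acetate (log2 change 0.25, SE 0.05, adjusted p = 0.00639). For these 4 lincRNAs the groups were apart, and the call held with each library left out in turn.

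The other 7 rises lost the call without some single library. Without control 2, acetate 1 or acetate 3 the count of rises was 7, and without acetate 2 it was 6. Epb41l4aos, with the values above, had a log2 change of 0.28 (SE 0.08, adjusted p = 0.0285), and its call was lost without acetate 2 (adjusted p = 0.068), acetate 3 (0.0521), control 2 (0.0568) or control 3 (0.0889), within a range of 0.0108 to 0.0972. C430042M11Rik rose from 4.25 ± 0.672 to 5.63 ± 0.281 FPKM (adjusted p = 0.0252) and lost the call without control 2 (0.0506), acetate 1 (0.0635) or acetate 2 (0.0762). MGP_C57BL6NJ_G0005829 rose from 0.883 ± 0.0978 to 1.41 ± 0.0818 FPKM, passing the threshold through acetate alone (adjusted p = 0.0184), and lost the call without control 2 or acetate 1 (both 0.0504), acetate 3 (0.0541) or control 3 (0.0602).

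1810058I24Rik rose from 12.8 ± 0.958 to 15.2 ± 0.957 FPKM (adjusted p = 0.0274), with losses without control 1 (0.0711), control 3 (0.0835), acetate 2 (0.09) or acetate 3 (0.0628). RefSeq gives 1810058I24Rik as protein-coding, and the table's description matches it to Stmp1, a small mitochondrial protein. Gm29243 rose from 9.05 ± 0.698 to 10.7 ± 0.315 FPKM (adjusted p = 0.0236), with losses without control 2 (0.0588), control 3 (0.0675), acetate 1 (0.0629) or acetate 2 (0.0612). MGP_C57BL6NJ_G0005820 rose from 9.94 ± 0.385 to 11.8 ± 0.987 FPKM (adjusted p = 0.0236), with losses without control 1 (0.0758), control 3 (0.0616) or acetate 2 (0.0507). 2810425M01Rik rose from 1.21 ± 0.112 to 1.69 ± 0.182 FPKM (adjusted p = 0.0453) and lost the call whichever library was left out (0.0589 to 0.132).

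Neighbours were taken as the nearest protein-coding row on the chromosome, by the positions in the table. These positions follow the annotation of the C57BL/6NJ strain: of 130 lincRNAs matched by symbol to GENCODE M21, 130 lie on the same chromosome and 0 overlap the mm10 position. The median distance was 4.27 kb, 143 of the 154 had a neighbour within 100 kb, and 25 overlapped one. Of 118 such neighbours that were tested, 60 were called (50.8%), 23 higher and 37 lower. Over protein-coding rows 41.4% were called, 23.8% higher and 17.6% lower.

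Both lincRNA and neighbour were called in 22 pairs. Of these, 18 moved the same way, 16 lower and 2 higher, and 4 moved apart. Since 38 of the 49 called lincRNAs and 37 of the 60 called neighbours were lower, some agreement follows from that alone. No test of the pairing was run. Across the 118 pairs Pearson's r of the log2 changes was 0.241 and Spearman's rho 0.278, over genes that share the same 6 libraries. By orientation r was 0.652 for the 18 that overlap on opposite strands, 0.301 for 39 divergent, 0.232 for 43 on the same strand without overlap and -0.172 for 14 convergent pairs. Among pairs without overlap 15 were both called, of which 12 moved the same way. Reads shared by overlapping genes cannot be told apart, and the part of shared reads in these values was not tested.

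**Figure D4:**
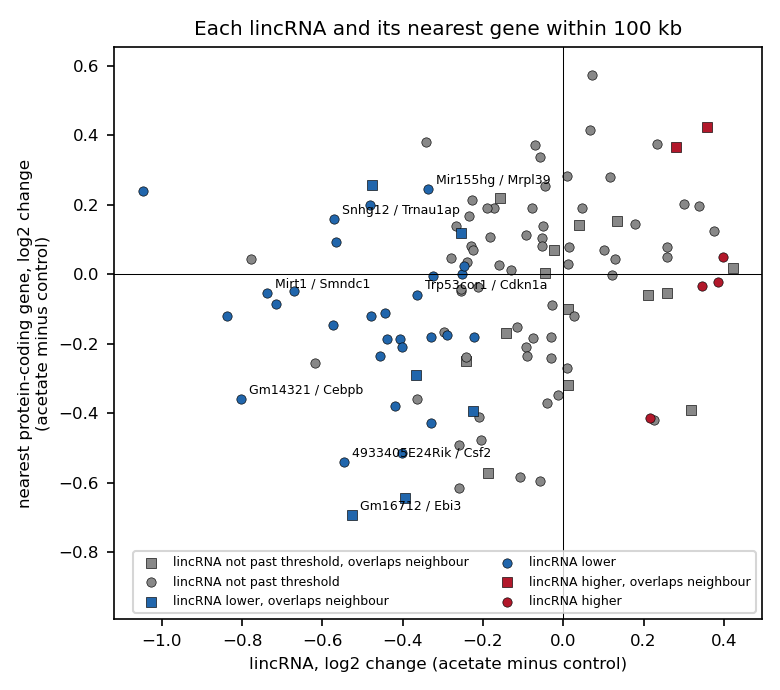
Log2 change (acetate minus control) of the nearest tested protein-coding gene within 100 kb (vertical axis) against that of the lincRNA (horizontal axis), for 118 pairs, with squares for overlapping genes and colours for the lincRNA's call. Most pairs in which both were called lie at lower left, such as Gm16712 with Ebi3 and 4933405E24Rik with Csf2.

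Gm16712 (MGP_C57BL6NJ_G0005872, chromosome 17, 59860519 to 59865129) overlaps Ebi3, a subunit of the cytokines IL-27 and IL-35, on the opposite strand, and the table's description matches it to the Ebi3 protein. Gm16712 had 9.11, 7.99 and 9.11 FPKM in control and 5.81, 5.55 and 5.90 in acetate (log2 change -0.53, SE 0.06, adjusted p = 0.000739). Ebi3 had 19.8, 20.5 and 17.3 FPKM in control and 11.3, 11.2 and 11.9 in acetate (log2 change -0.69, adjusted p = 0.000363). Both were lower in every acetate library than in any control library.

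4933405E24Rik (chromosome 11, 55291186 to 55331857) lies 35889 bases from Csf2, which encodes the cytokine GM-CSF, on the same strand. The lincRNA had 1.86, 2.46 and 2.01 FPKM in control and 0.901, 1.151 and 1.33 in acetate (log2 change -0.55, SE 0.11, adjusted p = 0.00827). Csf2 had 31.6, 34.3 and 29.8 FPKM in control and 20.5, 21.6 and 22.7 in acetate (log2 change -0.54, adjusted p = 0.000682). Neither gene's groups overlapped.

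Gm14321 lies 86755 bases from the transcription factor gene Cebpb. It had 2.93, 2.17 and 2.50 FPKM in control and 0.690, 1.12 and 1.30 in acetate (log2 change -0.80, SE 0.14, adjusted p = 0.00372). Cebpb had 8.68, 7.60 and 7.68 FPKM in control and 5.08, 6.03 and 7.01 in acetate (log2 change -0.36, adjusted p = 0.0269). Its call was lost without control 1 (adjusted p = 0.0859), control 3 (0.0534) or acetate 2 (0.0673), within a range of 0.00421 to 0.0946.

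More pairs with both genes lower were picked out after their values were seen. AI504432 had 35.8, 37.7 and 41.3 FPKM in control and 32.5, 27.7 and 26.3 in acetate (adjusted p = 0.0085), and Kcna3, the voltage-gated potassium channel of T cells 1434 bases away on the same strand, fell from 36.9 ± 1.74 to 25.6 ± 1.97 FPKM (adjusted p = 0.000876). 9330175E14Rik fell from 2.68 ± 0.182 to 1.93 ± 0.125 FPKM (adjusted p = 0.0114), and Herpud1, an endoplasmic reticulum stress gene 32009 bases away, fell from 38.4 ± 1.42 to 28.3 ± 0.837 FPKM (adjusted p = 0.000436). Gm16793 fell from 4.93 ± 0.683 to 3.51 ± 0.484 FPKM (adjusted p = 0.0253), and Mfhas1, which it overlaps on the opposite strand, fell from 36.7 ± 0.985 to 23.1 ± 1.04 FPKM (adjusted p = 0.00012). The call of Gm16793 was lost without control 1 (0.081), control 2 (0.0788), acetate 2 (0.0765) or acetate 3 (0.0584).

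The 2 pairs in which both rose overlap on opposite strands. 2810425M01Rik overlaps Fam207a, which rose from 15.7 ± 0.922 to 20.6 ± 1.154 FPKM (adjusted p = 0.00264). MGP_C57BL6NJ_G0005829 overlaps Fam195a, which rose from 20.5 ± 1.34 to 28.0 ± 4.19 FPKM (adjusted p = 0.0156) and whose call was lost without control 3 (0.0505) or acetate 2 (0.0545).

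The 4 pairs that moved apart include Mir155hg with Mrpl39, given above. Gm29243 rose while Saraf, an inhibitor of store-operated calcium entry 51205 bases away, fell from 129 ± 0.781 to 96.7 ± 6.76 FPKM (adjusted p = 0.00111). MGP_C57BL6NJ_G0005945 fell from 6.20 ± 0.480 to 4.19 ± 0.565 FPKM (adjusted p = 0.0059) while Ms4a4b, a T cell membrane protein gene that it overlaps on the same strand, rose from 124 ± 4.96 to 149 ± 6.51 FPKM (adjusted p = 0.00492). C130083M11Rik fell from 7.06 to 4.76 FPKM (adjusted p = 0.00183) while Dhx15, an RNA helicase gene 9501 bases away, rose from 45.5 to 52.4 FPKM (adjusted p = 0.00321).

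Not every lincRNA beside a gene that changed did so. Gm44174 lies 264 bases from Cd8a, the coreceptor gene by which these cells are named, and had 37.3, 46.0 and 49.5 FPKM in control and 49.3, 42.0 and 45.4 in acetate (log2 change 0.05, SE 0.10, adjusted p = 0.758). Cd8a rose from 308 ± 1.57 to 352 ± 12.3 FPKM (log2 change 0.19, adjusted p = 0.00864). Neat1 fell beside Frmd8, which is 4171 bases away and fell from 14.8 ± 0.422 to 13.0 ± 0.576 FPKM (adjusted p = 0.0204) and whose call was lost without control 1 (0.0648), control 2 (0.0628), acetate 1 (0.0516) or acetate 2 (0.0659).

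Within 100 kb of each other lay 9 pairs of lincRNAs, 6 of them overlapping, and Mirt1 with 4833407H14Rik was the 1 pair in which both were called. By chromosome, the most called lincRNAs were 7 of 10 on chromosome 19 (6 lower, 1 higher) and 7 of 14 on chromosome 5 (6 lower, 1 higher). Over all chromosomes 31.8% of the 154 and 38.9% of all rows tested were called. These chromosomes were picked as the highest after the counts were seen. The count on chromosome 19 includes both Mirt1 and 4833407H14Rik, whose reads cannot be told apart.

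The biotype itself is uncertain for some of the 154. The table's description gives a match to a protein for 29, of which 3 fell and 3 rose, and for 7 the matched protein is that of the nearest protein-coding gene. RefSeq matched 89 by symbol and gives 86 of them as long noncoding RNA. The other 3 are 1810058I24Rik, given as protein-coding, and the pseudogenes 4632415L05Rik and Gm17322.

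The nuclear exosome breaks down many noncoding RNAs. Of 21 exosome genes and cofactors tested, 8 rose and 1 fell (median log2 change 0.13), against 23.8% and 17.6% of protein-coding rows. At 20 FPKM or more the shares of protein-coding rows were 37.5% higher and 14.7% lower. Dis3, a catalytic exosome subunit, rose from 41.4 ± 1.32 to 52.9 ± 1.07 FPKM (adjusted p = 0.000644), and Skiv2l2, the helicase MTR4, from 61.5 ± 0.971 to 73.4 ± 0.515 FPKM (adjusted p = 0.00113). Papd7, a poly(A) polymerase that marks nuclear RNA for the exosome, rose from 9.68 ± 0.317 to 12.04 ± 0.411 FPKM (adjusted p = 0.00255).

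Of 11 genes of N6-methyladenosine (m6A), the methyl mark placed on many lincRNAs, 5 rose and 2 fell (median log2 change 0.11), the falls again at about the share over protein-coding rows (23.8% higher, 17.6% lower). Alkbh5, which removes the mark, rose from 32.4 ± 0.734 to 41.1 ± 1.47 FPKM (adjusted p = 0.000889). Mettl3, the methyltransferase, fell from 9.26 ± 0.308 to 7.15 ± 0.172 FPKM (adjusted p = 0.00144). Rbm15b, an adaptor of the methyltransferase, rose from 13.9 ± 0.691 to 17.5 ± 0.0950 FPKM (adjusted p = 0.0018).

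In bulk RNA, fewer cells of a type and less RNA per cell cannot be told apart, and the cell type markers were therefore read beside these results. Of 9 CD8 T cell markers 4 rose and 0 fell in limma (0 fell at an unadjusted p under 0.05, and voom called 2 lower; 23.8% and 17.6% of protein-coding rows rose and fell), and their summed level ran from 3964 to 4151 FPKM in control and from 4540.2 to 4869.9 in acetate libraries. Most of the rise in that sum is Gzmb, an effector gene, which went from 2160 ± 17.8 to 2703 ± 64.1 FPKM. Cd3e, Cd3d, Cd3g, Cd8a and Lck had higher means in acetate, and Cd8b1, Trac and Trbc2 lower ones. Cd4 had a mean of 0.641 and 0.944 FPKM, Ms4a1 of 0.0246 and 0.00901, Ncr1 of 0.0539 and 0.0471, and Itgam was listed at 0 in every library. The summed levels of the other lists in control and acetate were 21.8 to 22.9 and 16.5 to 17.8 FPKM for 6 CD4 T cell markers and 144.5 to 152.3 and 84.8 to 91.8 for 5 natural killer cell markers. Most of the CD4 shift is Zbtb7b, and the natural killer sum is mostly Gzma and Eomes, which CD8 T cells are known to make. Of these, Gzma fell from 107.3 ± 4.16 to 45.0 ± 3.69 FPKM (log2 change -1.24, limma adjusted p = 7.35e-05). Eomes did not fall, with 40.5 ± 1.58 and 42.5 ± 0.725 FPKM (adjusted p = 0.209). Among B cell markers Ighm rose from 53.5 ± 2.68 to 73.6 ± 4.79 FPKM (adjusted p = 0.0012), and Cd79b had 17.1 ± 0.783 and 17.2 ± 0.579 FPKM (adjusted p = 0.94). The 8 myeloid and dendritic markers summed to 9.38 to 10.5 and 10.2 to 11.2 FPKM, nearly all of it Cd68, with 2 markers at 0, and the 5 erythroid and platelet markers to under 1 FPKM, with 2 at 0. The part of these shifts in the lincRNA changes was not tested.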

How the data were processed

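The deposited table holds FPKM per gene for 6 libraries, which the authors made with cutadapt 1.18, HISAT2 2.1.0 and the build mm10, per the submitters' processing notes; the counting tool and strand setting were not given in the sources used here. Identifiers and positions in the table belong to a C57BL/6NJ annotation. A single line without values was left out. FPKM times gene length came out as whole multiples of 1 step per library for 100% of values (tolerance 0.01), which gave the recovered reads; among genes of few reads 64.2% to 65.7% were even numbers, against 49.5% to 50.8% among genes of many reads, so a recovered read may be 1 end of a fragment counted at both. Totals ran from 31098394 to 39140711 recovered reads.

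Groups came from the titles, 3 control and 3 acetate. All 10867 rows with a mean of at least 1 FPKM were fitted as log2(FPKM + 1) in limma 3.58.1 (R 4.3.3), using the empirical Bayes trend; fold changes on this scale understate changes of low genes. P-values are two-sided and Benjamini-Hochberg adjusted over all rows, with the threshold at 0.05. The fit was also run on simulated data in which few rows were changed, unlike these data, where many were called. That run is no support for the calls given here. Positions were joined and figures drawn in Python 3.11.15 with pandas 2.3.3 and matplotlib 3.10.9.

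The lincRNAs and gene lists were chosen with earlier results of these data known. Genes were named by rule: lincRNAs past the threshold without overlap of groups (up to 12 rises and 12 falls by size), the 10 most abundant, those on lists of known lincRNAs, those at the threshold's edge, the neighbours of named ones that changed, and up to 3 of lowest p per partner list. Alternatives covered the pseudocount, the filter, the scaling, voom on recovered reads, the trend, the replicate block, each library left out, the neighbour distance and the membership threshold. The result of 1 marker gene, and the summed level of its list, are not reported here.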

Additional observations from a re-analysis of the deposited data

How the results depend on the processing

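Over 16 alternatives on the whole table, the called lincRNAs numbered 28 to 53, 26 of the 49 kept the call in each. Of the 39 named by rule, 5 changed sign in some alternative, of which 0 were called: Snhg6 (log2 change 0.06, but -0.0149 on the TPM scale, -0.0257 with cyclic loess and -0.0071 with quantile scaling), Gm44174, Ftx, Gm19585 and MGP_C57BL6NJ_G0007363. Of 26 named and called, 15 kept the call in each. With rows of any level tested, 5 lincRNAs rose and 23 fell, and with the membership threshold lowered to 0.5 FPKM in that fit 6 rose and 26 fell. On the TPM scale 6 rose. The median log2 change was -0.142 with a pseudocount of 0.1, -0.196 on the TPM scale, -0.194 with voom and -0.185 for lincRNAs of at least 2 FPKM. The cause was not tested for any of these. Leaving out 1 library gave 6 to 8 rises, 28 to 37 falls, 41 to 58 called neighbours and medians of -0.129 to -0.096, and 28 of the 49 kept the call each time. The median change of all rows tested was 0.02 in the fit reported, -0.02 with voom and lowest, at -0.05, on the TPM scale. In counts added after seeing the data, 32 fell among lincRNAs that overlap no protein-coding row and 27 among those of at least 100 reads. Both are parts of the falls of the fit reported, not new fits, and give no separate support. Replicate numbers did not pair the samples (correlations of same-numbered deviations -0.054, 0.026 and -0.039), and with the replicate block 8 rose, 33 fell and 52 neighbours were called. Depth limits the 28 lincRNAs with under 50 reads per library.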
